A study of Mus musculus with 8 samples.

Results

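Insulin-like growth factors are secreted hormones that act on neighbouring cells as well as through the blood. The genes described here were the ligand Igf1, the receptors Igf1r and Igf2r, and the binding proteins Igfbp2 to Igfbp7, taken from the count table by name. Of 10 genes listed by name 9 were found among the 12211 rows of the count table and all 9 had enough counts to be tested, of 11909 genes tested in all. Igf2 was not analysed here. The data were RNA sequencing counts of mouse embryonic fibroblasts, connective tissue cells grown out of embryos and kept in medium with 10% serum. There were 4 libraries labelled PUS10KO, with the genotype given as PUS10 KO, and 4 control libraries, with the genotype given as WT, numbered 1 to 4 in each. The labels give no strain, clone, age or animal for either genotype, and the spread that p-values rest on here is the spread between these libraries, which may be technical. PUS10 makes pseudouridine, a modified base, in RNA.

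IGF1 and IGF2 bind IGF1R, a receptor tyrosine kinase that signals through docking proteins to PI3K and AKT and drives growth and survival. IGF2R, also the cation-independent mannose 6-phosphate receptor, has no kinase domain, carries IGF2 to the lysosome for breakdown, and sorts lysosomal enzymes. The binding proteins hold the ligands outside the cell and can block or prolong their action, and proteases such as PAPP-A release the ligand again. Fibroblasts both make these proteins and respond to the ligands, and serum brings ligands and binding proteins of its own, which counts of RNA do not show.

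Totals ran from 17561114 counts in PUS10KO 4 to 24563499 in PUS10KO 2, and Pus10 itself fell (log2 fold change -1.74, edgeR adjusted p = 0.000189). The first principal component (56.1% of the variance) parted the genotypes, and the second (26.1%) parted libraries 1 and 2 from libraries 3 and 4 in both. Fibroblast markers summed to 12248 to 18946 CPM (counts scaled to a common library total by TMM) in PUS10KO and 18455 to 23845 CPM in control, and 4 of 12 fell and none rose. Thy1, a fibroblast surface marker, had 2 counts over the 4 PUS10KO libraries and 1726 over the 4 control libraries, while Pdgfra, another marker of the list, had a log2 fold change of 1.02 and did not pass (edgeR adjusted p = 0.0605). Of 9 pericyte and smooth muscle markers 5 fell and 1 rose, and their sum was 2623 to 3608 CPM in PUS10KO and 6729 to 20098 CPM in control. By the same edgeR test 5.9% of all genes rose and 7.11% fell. Of the markers of other cell types 1 of 4 macrophage and leukocyte genes rose (Cd14), 1 of 3 chondrocyte genes rose (Col2a1, whose libraries overlapped between genotypes and which was called in 1 of 8 fits with 1 library left out and not by limma voom), and 1 gene fell in each of the epithelial (1 tested), skeletal muscle (2), adipocyte (4) and neural (3) lists. Of 3 endothelial genes edgeR called 0, with 1 at an unadjusted p under 0.05, 1 called by DESeq2 and 0 by limma voom. Tested were 1 of 8 listed epithelial, 2 of 8 skeletal muscle, 3 of 9 endothelial and 3 of 7 neural genes. For macrophage and leukocyte, chondrocyte and adipocyte genes it was 4 of 8, 3 of 7 and 4 of 6. The others had no row, so a call there speaks for its gene and not for the list. No marker with a row had 0 counts in a whole genotype, and the part of these markers in the results below was not tested. In bulk RNA fewer cells of a type and less RNA per cell cannot be told apart.

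Of the 9 genes 3 rose in PUS10KO (Igf1, Igfbp2 and Igfbp6), 2 fell (Igf2r and Igfbp7) and 4 did not pass the test (Igf1r, Igfbp3, Igfbp4 and Igfbp5). A gene is said to have risen or fallen where its adjusted p was under 0.05 in edgeR's quasi-likelihood test over all genes tested. In that test 13.0% of all genes passed, 5.9% by rising and 7.11% by falling. The median log2 fold change of the 9 genes was 1.47, against 0.01 over all genes tested, and the range was -1.14 to 3.42. That median is the value of Igfbp3, which did not pass, and it was not tested. For the same 5 genes the PUS10KO and control libraries did not overlap, which held for 20.3% of all genes tested (9.7% higher and 10.6% lower in PUS10KO). DESeq2 called 5 rises and 2 falls among the 9 genes, with Igfbp3 and Igfbp5 in addition, where 9.09% and 10.3% of all genes did so (19.4% in all). Limma voom called the same 5 genes as edgeR, where 6.01% of all genes rose and 6.93% fell (12.9% in all). With the library number as a further term in edgeR 6 of the 9 genes rose, with Igfbp3, Igfbp4 and Igfbp5 in addition, and 2 fell. Of all genes 19.1% then rose and 19.9% fell (39.0% in all).

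The promoters of the 5 genes that passed are shown for comparison, since 3 of them rose and 2 fell. Each is the 250 bases before a RefSeq start site, on GRCm38.p6 and on the strand of the gene. For Igfbp2, Igfbp6, Igf2r and Igfbp7 the first 30 bases after that start were not found in a GENCODE M21 transcript of the gene. The Igf1 window lies inside the gene as GENCODE M21 places it, from 87858265 on. Whether these starts are used in these cells was not tested. The windows are chr10:87860861-87861110 (plus strand) for Igf1, chr1:72824230-72824479 (plus) for Igfbp2, chr15:102143936-102144185 (plus) for Igfbp6, chr17:12769707-12769956 (minus) for Igf2r and chr5:77408046-77408295 (minus) for Igfbp7. Capitals mark the words searched on both strands: TATAAA (the TATA box), GGGCGG (the GC box), CCAAT (the CCAAT box), CACGTG (an E-box), GGAATG (bound by TEAD factors) and GTAAACA (bound by FoxO factors).
Igf1: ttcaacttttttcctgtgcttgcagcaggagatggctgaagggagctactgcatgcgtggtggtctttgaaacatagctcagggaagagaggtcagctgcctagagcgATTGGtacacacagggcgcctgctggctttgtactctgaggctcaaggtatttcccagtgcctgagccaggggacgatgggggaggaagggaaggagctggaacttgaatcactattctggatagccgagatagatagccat
Igfbp2: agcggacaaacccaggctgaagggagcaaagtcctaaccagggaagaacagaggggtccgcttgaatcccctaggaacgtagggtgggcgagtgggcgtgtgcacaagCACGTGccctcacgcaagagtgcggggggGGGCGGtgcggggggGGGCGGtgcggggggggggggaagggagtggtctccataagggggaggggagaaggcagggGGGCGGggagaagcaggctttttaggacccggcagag
Igfbp6: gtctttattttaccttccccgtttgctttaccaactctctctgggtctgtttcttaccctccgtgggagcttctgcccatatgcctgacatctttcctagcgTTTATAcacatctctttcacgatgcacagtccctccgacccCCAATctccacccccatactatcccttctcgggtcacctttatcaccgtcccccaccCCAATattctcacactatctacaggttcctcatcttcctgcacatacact
Igf2r: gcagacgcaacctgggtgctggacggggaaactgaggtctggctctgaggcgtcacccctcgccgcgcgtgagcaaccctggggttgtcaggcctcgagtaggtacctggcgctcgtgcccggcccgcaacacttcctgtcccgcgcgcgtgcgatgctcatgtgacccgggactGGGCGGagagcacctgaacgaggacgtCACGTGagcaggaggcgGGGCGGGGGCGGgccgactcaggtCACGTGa
Igfbp7: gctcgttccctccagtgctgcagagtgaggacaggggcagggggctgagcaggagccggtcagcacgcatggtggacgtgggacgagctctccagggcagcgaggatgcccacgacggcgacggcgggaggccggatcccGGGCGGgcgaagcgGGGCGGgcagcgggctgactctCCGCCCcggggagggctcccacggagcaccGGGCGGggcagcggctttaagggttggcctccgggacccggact
The windows of Igf2r and Igfbp7 held 3 and 4 GC boxes, and 32.7% of 32851 promoter windows of the same length had any. How many windows hold several was not counted. Igfbp2 also held 3, while Igf1 and Igfbp6 held 0. Among the 4 genes that did not pass Igf1r held 2, and Igfbp3, Igfbp4 and Igfbp5 held 0. The Igf2r window had 2 E-boxes and that of Igfbp2 had 1, against 6.02% of all windows with any. The CCAAT word stood once in the Igf1 window and 2 times in that of Igfbp6, and 33.8% of all windows had it. The word TATAAA was found in Igfbp6 and, among the 4 genes that did not pass, in Igfbp4, against 12.4% of all windows. In Igfbp4 it began 28 bases before the start. In Igfbp6 it began 148 bases before the start and was on the opposite strand. The FoxO word was in none of the 9 windows (3.17% of all), and the TEAD word was in that of Igfbp5 alone (12.6% of all). No 2 different words overlapped in the windows shown. GC content was 52.8% for Igf1, 67.2% for Igfbp2, 49.6% for Igfbp6, 69.2% for Igf2r and 74.0% for Igfbp7, with a median of 52.4% over all windows.

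Igf1, the only ligand analysed, was higher in PUS10KO. Igf1 (ENSMUSG00000020053.18, chromosome 10, 87858265 to 87937042, plus strand, build GRCm38), had values of 21.9, 24.1, 33.6 and 54.9 CPM in PUS10KO libraries 1 to 4, against 6.67, 9.85, 9.43 and 15.3 CPM in control libraries 1 to 4. The lowest PUS10KO library was above the highest control library, and library 4 was the highest in both genotypes. The means were 33.6 ± 15.1 CPM in PUS10KO and 10.3 ± 3.60 CPM in control (SD, n = 4 each). On the log2 scale the fold change came to 1.70 (SE 0.35, edgeR adjusted p = 0.0127), a 3.26-fold rise. The 575 tested genes of chromosome 10 had a median log2 fold change of -0.25, so Igf1 moved against its chromosome. Its antisense neighbour Igf1os shares no exon with it in GENCODE M21.

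Among 10917 genes compared, those whose levels most resembled Igf1 over the 8 libraries were Socs3 (Pearson r = 0.998 of log2 CPM), Pja1 (r = 0.996) and Vmp1 (r = 0.984). These values describe likeness only, since the libraries share genotype and number and the genes were picked for a high r. Socs3, a feedback inhibitor of cytokine signalling, had 61.7, 69.9, 88.9 and 122 CPM in PUS10KO libraries 1 to 4 and 23.6, 30.4, 30.6 and 45.6 CPM in control libraries 1 to 4. It thus shared with Igf1 the gap between genotypes and the high library 4 (log2 fold change 1.40, edgeR adjusted p = 0.00898). Pja1, a ubiquitin ligase gene, and Vmp1, an autophagy gene, had log2 fold changes of 0.28 and 0.35 and did not pass (edgeR adjusted p = 0.116 and 0.102).

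**Figure D1:**
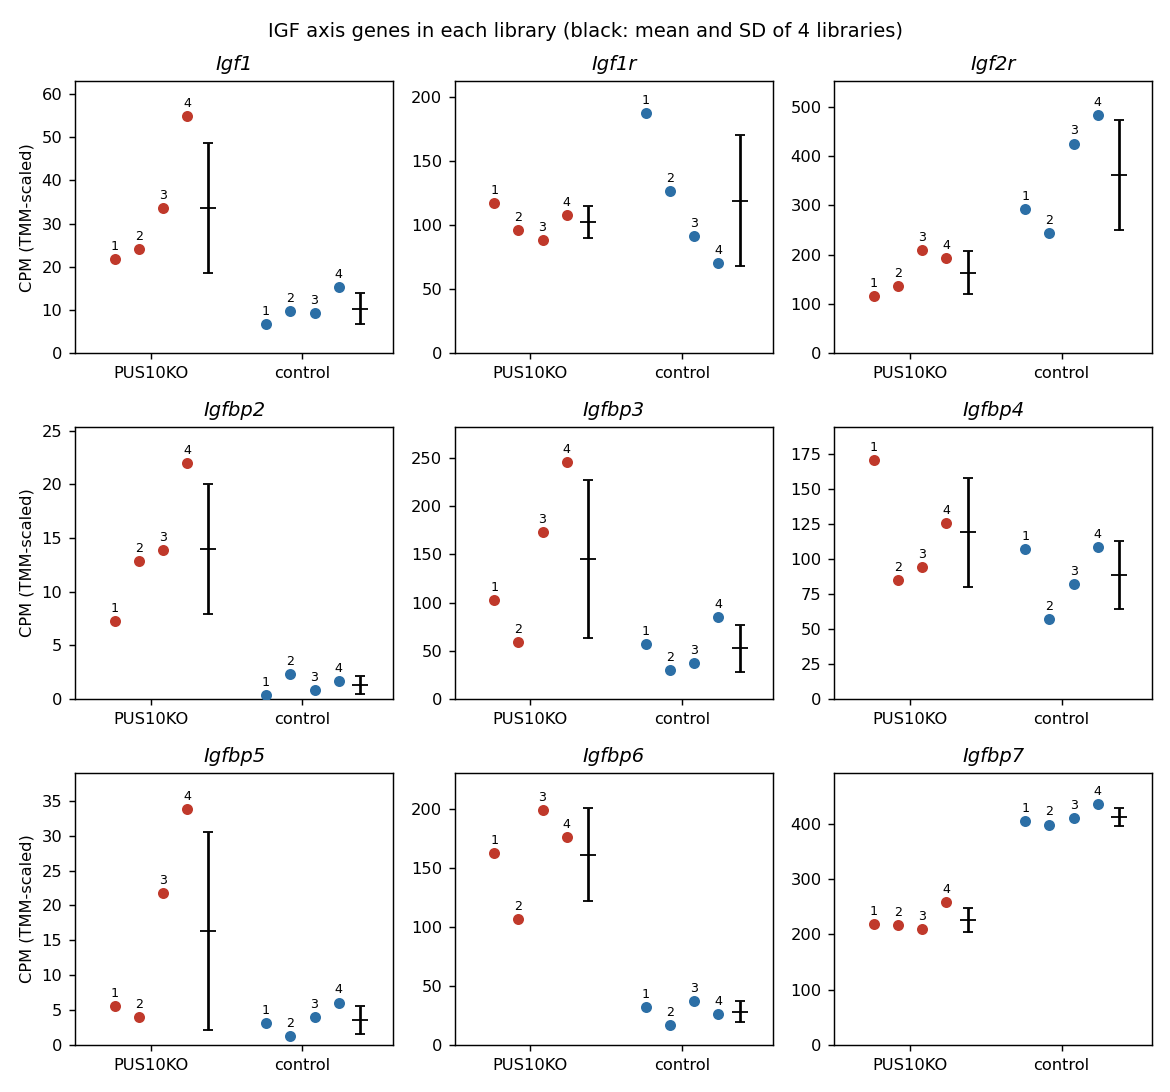
TMM-scaled CPM of each gene (vertical axes, linear, from 0) in PUS10KO libraries (red) and control libraries (blue), with library numbers above the points and the mean and SD of 4 libraries in black. Igf1, Igfbp2 and Igfbp6 lie wholly above control in PUS10KO, Igf2r and Igfbp7 wholly below, and the other 4 overlap.

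The receptors differed from each other. Igf2r fell and Igf1r did not pass. Igf2r (ENSMUSG00000023830.14, chromosome 17, 12682406 to 12769664, minus strand) had 117, 136, 210 and 192 CPM in PUS10KO libraries 1 to 4, against 293, 245, 425 and 484 CPM in control libraries 1 to 4. Every PUS10KO library was below every control library, and libraries 3 and 4 were higher than 1 and 2 in both genotypes. The means were 164 ± 44.2 CPM in PUS10KO and 362 ± 112 CPM in control (SD, n = 4 each). Its log2 fold change came to -1.14 (SE 0.27, edgeR adjusted p = 0.0238), or 2.21-fold lower. Without PUS10KO 1, PUS10KO 2, control 3 or control 4 the call was lost, with edgeR adjusted p = 0.0535, 0.0673, 0.0667 and 0.0578, while with the replicate block (the library number as a term) it was 9.8e-05. The antisense RNA gene Airn, which overlaps Igf2r, shares no exon with it and had no row in the count table.

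Igf1r (ENSMUSG00000005533.10, chromosome 7, 67952827 to 68233668, plus strand) had 117, 96.2, 88.1 and 108 CPM in PUS10KO libraries 1 to 4, and 187, 127, 91.4 and 70.1 CPM in control libraries 1 to 4. The PUS10KO libraries lay inside the range of the control libraries, which spanned 2.67-fold from lowest to highest against 1.33-fold in PUS10KO. Its log2 fold change was -0.22 (SE 0.28, edgeR adjusted p = 0.679). Its sign depended on the libraries, since it was 0.10 without control 1 (edgeR adjusted p = 0.815) and 0.28 in libraries 3 and 4 alone (edgeR adjusted p = 0.235). The ratio of Igf2r to Igf1r per kilobase of exon was 1.80, 2.56, 4.29 and 3.21 in PUS10KO libraries 1 to 4 and 2.82, 3.48, 8.39 and 12.4 in control libraries 1 to 4. Within each number the PUS10KO library had the lower ratio, while the 2 groups overlapped.

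The binding proteins changed in opposite directions. Igfbp2 and Igfbp6 rose, Igfbp7 fell, and Igfbp3, Igfbp4 and Igfbp5 did not pass without the replicate block. Igfbp6, which binds IGF2 with a marked preference over IGF1, had the lowest p of the 9 genes. Igfbp6 (ENSMUSG00000023046.6, chromosome 15, 102144362 to 102149511, plus strand) had 163, 106, 199 and 176 CPM in PUS10KO libraries 1 to 4, against 32.5, 17.1, 37.3 and 26.2 CPM in control libraries 1 to 4. All PUS10KO libraries were above all control libraries, and library 2 was the lowest in both genotypes. The means were 161 ± 39.4 CPM in PUS10KO and 28.3 ± 8.73 CPM in control (SD, n = 4 each), with a log2 fold change of 2.51 (SE 0.28, edgeR adjusted p = 0.00076). This was a 5.69-fold rise, and it was called whichever of the 8 libraries was left out (log2 fold change 2.33 to 2.67).

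Igfbp2, a binding protein abundant in fetal tissues that carries an integrin-binding motif, had the highest fold change of the 9 genes and was low in control. Igfbp2 (ENSMUSG00000039323.18, chromosome 1, 72824503 to 72852474, plus strand) had 132, 323, 330 and 406 counts in PUS10KO libraries 1 to 4, against 7, 42, 17 and 36 counts in control libraries 1 to 4. This was 7.27, 12.8, 13.9 and 22.0 CPM in PUS10KO libraries 1 to 4 and 0.34, 2.30, 0.88 and 1.72 CPM in control libraries 1 to 4. The control libraries spanned 6.75-fold, and still none reached the lowest PUS10KO library. Igfbp2 thus had a log2 fold change of 3.42 (SE 0.55, edgeR adjusted p = 0.00436), a 10.7-fold rise, and it ran from 3.11 to 3.82 with 1 library left out, always called. In libraries 1 and 2 alone it was 2.96 and not called (edgeR adjusted p = 0.135).

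Igfbp5 lies next to Igfbp2 on chromosome 1, with 5457 bases and no gene of the count table between them and with the 2 genes read towards each other. Igfbp5, the binding protein most tied to bone and muscle and to extracellular matrix (ENSMUSG00000026185.8, 72857932 to 72874884, minus strand), had 5.62, 4.02, 21.8 and 33.9 CPM in PUS10KO libraries 1 to 4, and 3.16, 1.26, 4.02 and 6.08 CPM in control libraries 1 to 4. PUS10KO 3 and 4 stood above all control libraries, whereas PUS10KO 1 and 2 lay within the control range. The log2 fold change was 2.16 (SE 0.72) and did not pass (edgeR adjusted p = 0.0891), but it passed with the replicate block (log2 fold change 1.94, edgeR adjusted p = 0.000952). In libraries 3 and 4 alone it was 2.45 (edgeR adjusted p = 0.000477) and in libraries 1 and 2 alone 1.13 (edgeR adjusted p = 0.256). That these 2 values differ was not tested.

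Igfbp3, the main carrier of insulin-like growth factors in blood (ENSMUSG00000020427.11, chromosome 11, 7206086 to 7213923, minus strand), had 103, 59.2, 174 and 246 CPM in PUS10KO libraries 1 to 4, and 56.7, 30.6, 37.2 and 85.6 CPM in control libraries 1 to 4. Only PUS10KO 2 lay within the control range. Its genotype difference was 1.47 on the log2 scale (SE 0.47, edgeR adjusted p = 0.0748), and with the replicate block it was 1.39 and passed (edgeR adjusted p = 0.00135). It also passed without PUS10KO 2 (edgeR adjusted p = 0.0355) or without control 4 (edgeR adjusted p = 0.0499). Igfbp4, an inhibitory binding protein that PAPP-A cleaves (ENSMUSG00000017493.12, chromosome 11, 99041244 to 99054392, plus strand), had 171, 85.0, 94.3 and 126 CPM in PUS10KO libraries 1 to 4, and 107, 56.9, 81.9 and 109 CPM in control libraries 1 to 4. The groups overlapped, and the log2 fold change was 0.42 (SE 0.27, edgeR adjusted p = 0.368, or 0.0146 with the replicate block). Both lie on chromosome 11, whose median log2 fold change was 0.16, with 91827320 bases between them.

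Igfbp7, which binds insulin-like growth factors weakly and is laid down in vessel walls and matrix, was the most even of the 9 genes between libraries of a genotype. Igfbp7 (ENSMUSG00000036256.13, chromosome 5, 77349240 to 77408041, minus strand) had 218, 218, 209 and 258 CPM in PUS10KO libraries 1 to 4, against 405, 399, 411 and 436 CPM in control libraries 1 to 4. The 2 groups were far apart for their spread, at 226 ± 21.8 CPM in PUS10KO and 413 ± 16.5 CPM in control (SD, n = 4 each). Igfbp7 had a log2 fold change of -0.87 (SE 0.11, edgeR adjusted p = 0.00153), or 1.83-fold lower, and stayed between -0.94 and -0.83 with 1 library left out. An exon of Polr2b on the opposite strand shares 85 bases with an exon of Igfbp7, and no source used here gives the strand setting of the counts. Polr2b, an RNA polymerase II subunit gene, had a log2 fold change of 0.27 and did not pass (edgeR adjusted p = 0.183). Of the 9 pericyte and smooth muscle markers Acta2, Tagln, Myh11, Cspg4 and Mcam also fell, with log2 fold changes from -5.54 to -1.67. Notch3, of the same list, rose (log2 fold change 2.21, edgeR adjusted p = 0.0249), and Cnn1 had 1.46 and did not pass (edgeR adjusted p = 0.146, or 0.00597 with the replicate block).

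**Figure D2:**
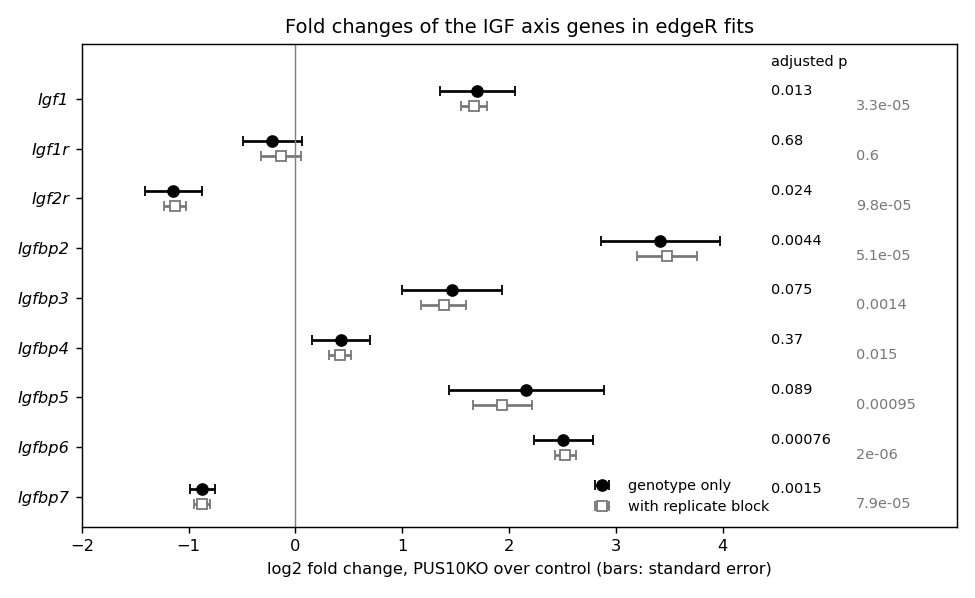
Log2 fold change of PUS10KO over control (horizontal axis) with its standard error for each gene, from the fit with genotype alone (black circles) and with the replicate block (open squares), and the edgeR adjusted p of each at the right. The estimates stayed close, the errors shrank with the block, and Igfbp3, Igfbp4 and Igfbp5 then passed.

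Comparing libraries of the same number gave a like picture. On the log2(CPM + 0.5) scale 6 of the 9 genes were higher in PUS10KO in all 4 numbers and 2 were lower in all 4, against 28.4% and 26.9% of all genes tested. With the replicate block 6 rose and 2 fell, where 19.1% and 19.9% of all genes tested did so (39.0% in all). For Igf1 the differences in numbers 1 to 4 were 1.64, 1.25, 1.78 and 1.81, and for Igfbp6 2.31, 2.60, 2.40 and 2.73. For Igf2r they were -1.32, -0.84, -1.02 and -1.33, and for Igfbp7 -0.89, -0.87, -0.97 and -0.76. Each of these 4 genes kept its sign in every number. Igfbp3 had 0.85, 0.94, 2.21 and 1.52 and Igfbp5 had 0.74, 1.36, 2.30 and 2.39, larger in numbers 3 and 4. Igfbp4 had 0.68, 0.57, 0.20 and 0.21, larger in numbers 1 and 2. Igf1r was the 1 gene with both signs, at -0.68, -0.40, -0.05 and 0.62. In libraries 1 and 2 alone edgeR called 2 rises (Igf1 and Igfbp6) and 2 falls among the 9 genes, where 2.92% and 2.8% of all genes passed (5.72% in all). In libraries 3 and 4 alone it called 4 rises (with Igfbp2 and Igfbp5 in addition) and the same 2 falls, where 11.1% and 12.5% passed (23.6% in all).

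**Figure D3:**
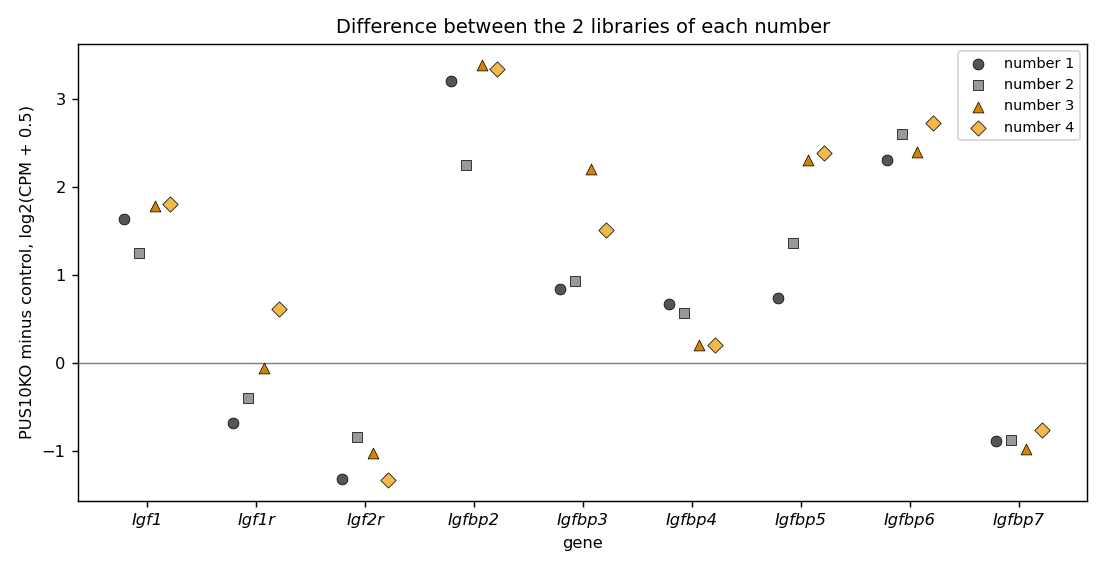
Difference between the PUS10KO and the control library of each number, in log2(CPM + 0.5) (vertical axis), for each gene. Grey symbols are numbers 1 and 2 and orange symbols numbers 3 and 4. Igf1r alone falls on both sides of 0, and Igfbp3 and Igfbp5 are larger in numbers 3 and 4.

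Levels of different genes were set side by side only per kilobase of exon (CPM divided by the length of the union of exons). In PUS10KO the order of mean level per kilobase was Igfbp7 (187 ± 18.0), Igfbp6 (145 ± 35.4), Igfbp3 (46.4 ± 26.2), Igfbp4 (26.9 ± 8.79), Igf2r (17.6 ± 4.75), Igfbp2 (7.58 ± 3.28), Igf1r (6.10 ± 0.76), Igf1 (3.39 ± 1.52) and Igfbp5 (2.72 ± 2.36). In control it was Igfbp7 (341 ± 13.7), Igf2r (38.8 ± 12.0), Igfbp6 (25.4 ± 7.85), Igfbp4 (20.1 ± 5.53), Igfbp3 (16.8 ± 7.87), Igf1r (7.08 ± 3.05), Igf1 (1.04 ± 0.36), Igfbp2 (0.71 ± 0.47) and Igfbp5 (0.60 ± 0.33), all SD with n = 4. Neighbours in this order overlapped between libraries except Igfbp6 over Igfbp3 and Igf2r over Igfbp2 in PUS10KO, and Igfbp7 over Igf2r and Igf1r over Igf1 in control. Igfbp7 thus stood clear of every other gene in control, while in PUS10KO its libraries overlapped those of Igfbp6.

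The summed level of the 6 binding protein genes was close between genotypes while its make-up was not. The sum per kilobase was 403, 322, 440 and 496 in PUS10KO libraries 1 to 4 and 407, 370, 405 and 438 in control libraries 1 to 4, so the control libraries lay inside the PUS10KO range. The means were 415 ± 73.3 in PUS10KO and 405 ± 28.2 in control (SD, n = 4 each). Igfbp7 made up 44.8%, 56.0%, 39.3% and 43.0% of the sum in PUS10KO libraries 1 to 4, and 82.2%, 89.3%, 83.9% and 82.3% in control libraries 1 to 4. Igfbp6 made up 36.3%, 29.8%, 40.7% and 31.9% in PUS10KO libraries 1 to 4, and 7.18%, 4.17%, 8.30% and 5.37% in control libraries 1 to 4. Neither share overlapped between genotypes. The ratio of Igfbp6 to Igfbp7 was 0.78 ± 0.21 in PUS10KO and 0.075 ± 0.023 in control (SD, n = 4 each), and PUS10KO 3 was the 1 library in which Igfbp6 exceeded Igfbp7 (ratio 1.03). Igfbp3 averaged 10.6 ± 4.46% of the sum in PUS10KO and 4.07 ± 1.65% in control. Igfbp2 averaged 1.81 ± 0.63% in PUS10KO and 0.18 ± 0.13% in control. These sums and ratios were chosen after the values had been seen and were not tested.

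**Figure D4:**
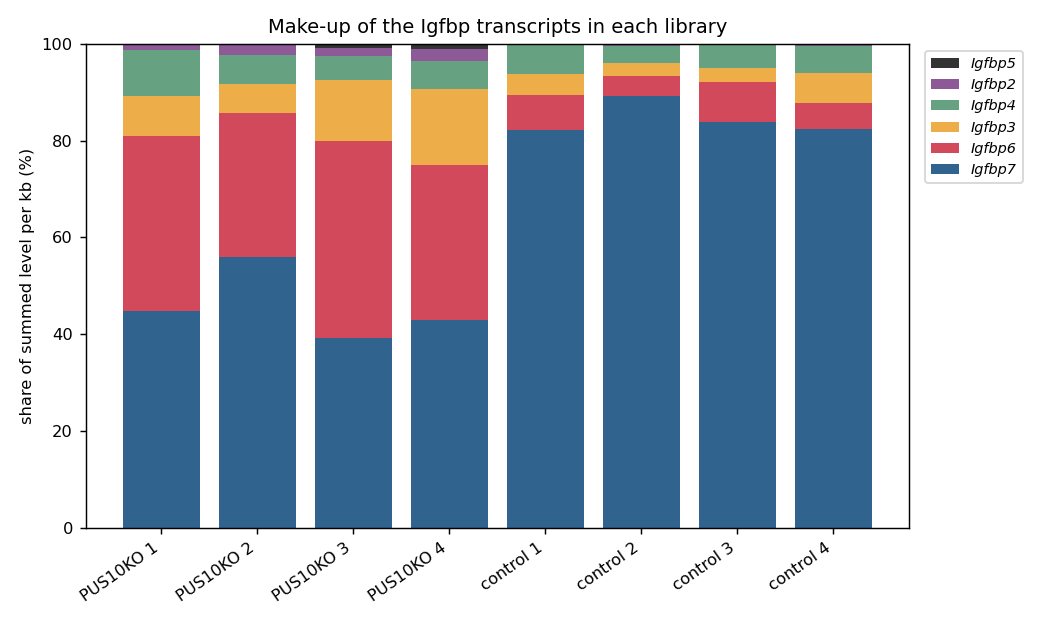
Share of each binding protein gene in the summed level per kilobase of the 6 genes (vertical axis, percent), with a bar for each PUS10KO library and then each control library. Igfbp7 takes 82.2% to 89.3% of the sum in control and 39.3% to 56.0% in PUS10KO, where Igfbp6 takes 29.8% to 40.7%.

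Of 84 tested genes of the pathway in 7 lists 1 rose, 10 fell and 73 did not pass, against 5.9% and 7.11% of all genes. Of those that fell Adam17, Akt1 and Sos2 lie on chromosome 12, whose median log2 fold change was -0.60. Relative to that median they had 0.04, -0.28 and -0.05. With 1 library left out 3 to 7 fell: 4, 3, 4 and 6 without PUS10KO 1 to 4, and 7, 5, 6 and 6 without control 1 to 4. In libraries 1 and 2 alone 3 fell, and in libraries 3 and 4 alone 16. Among 8 proteases that cleave binding proteins and their inhibitors 1 rose and 2 fell (median log2 fold change -0.29, against 0.01 over all genes tested). Pappa, the protease of Igfbp4 and Igfbp5, had 35.2 ± 13.1 CPM in PUS10KO and 80.2 ± 17.7 CPM in control (SD, n = 4 each), with a log2 fold change of -1.19 (SE 0.28, edgeR adjusted p = 0.0226). Stc1, a stanniocalcin that inhibits PAPP-A, had 7.52 ± 1.82 CPM in PUS10KO and 1.96 ± 0.67 CPM in control, with a log2 fold change of 1.94 (SE 0.31, edgeR adjusted p = 0.00391). The call of Stc1 held with any 1 library left out, and that of Pappa was lost without PUS10KO 1, PUS10KO 2, control 1 or control 4 (edgeR adjusted p up to 0.0553). Adam17, a membrane sheddase, had a log2 fold change of -0.56 (edgeR adjusted p = 0.0376), on chromosome 12, whose median was -0.60, and its call held only without control 1 among the fits with 1 library left out (edgeR adjusted p up to 0.104).

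In the other groups the genes that passed in edgeR with genotype alone all fell, where 7.11% of all genes fell and 5.9% rose. Among them only Igf2bp2, Nagpa and Akt1 were called whichever library was left out. Other fits called rises too. With the replicate block 3 PI3K, AKT and mTOR genes, 4 FoxO factors and targets and 1 mannose 6-phosphate gene rose, while 5, 2 and 3 fell. DESeq2 called 4, 3 and 3 genes of these lists, of which 1, 2 and 1 rose. Of 5 tested genes of the list with IGF2 mRNA-binding proteins and imprinted neighbours 2 fell and 3 did not pass. Of the 12 listed H19, Mir675, Ins2, Airn, Slc22a2, Slc22a3 and Meg3 had no row, so their levels are not known here. Igf2bp2 had 44.8 ± 5.65 CPM in PUS10KO and 73.3 ± 6.42 CPM in control (SD, n = 4 each), with a log2 fold change of -0.71 (edgeR adjusted p = 0.00731). Igf2bp3 had a log2 fold change of -0.46 (edgeR adjusted p = 0.0354, up to 0.0859 with 1 library left out, and called in 1 of 8 such fits). Of 10 genes of the mannose 6-phosphate pathway, which IGF2R serves, 2 fell and 8 did not pass. These were Nagpa, the enzyme that uncovers the mannose 6-phosphate tag (log2 fold change -0.79, edgeR adjusted p = 0.00901), and Gnptg, a subunit of the enzyme that makes it (-0.83, edgeR adjusted p = 0.0408, up to 0.0956 with 1 library left out, and called in 2 of 8 such fits).

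Of 27 PI3K, AKT and mTOR genes 3 fell and 24 did not pass (median log2 fold change 0.01), where 7.11% of all genes fell. Akt1, the kinase downstream of PI3K, had 217 ± 34.8 CPM in PUS10KO and 400 ± 35.9 CPM in control (SD, n = 4 each), with a log2 fold change of -0.88 (edgeR adjusted p = 0.00459). It lies on chromosome 12, and relative to that chromosome's median its fold change was -0.28. Pdpk1, which activates AKT, had -0.64 (edgeR adjusted p = 0.0307), and Gsk3b, a kinase that AKT inhibits, had -0.50 (edgeR adjusted p = 0.0442). With 1 library left out Pdpk1 was called in 3 of 8 fits and Gsk3b in 1 (edgeR adjusted p up to 0.0814 and 0.108). Of 14 receptor, docking and adaptor genes Sos2 fell (log2 fold change -0.65, edgeR adjusted p = 0.0249). It is also on chromosome 12, and relative to that chromosome's median its log2 fold change was -0.05. It was called in 3 of 8 fits with 1 library left out. The other 13 did not pass. Among those were Insr, the insulin receptor gene, with 0.03, and the docking protein genes Irs1 and Irs2 with -0.17 and -0.30 (edgeR adjusted p = 0.903, 0.63 and 0.647).

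Of the list of other carriers and binding proteins Igfbp1, Igfals and Igfbpl1 had no row, so their levels are not known here. The 6 genes tested were Kazald1, Htra1, Ccn1, Ccn2, Ccn3 and Ccn5. EdgeR called 0 of these 6, with 1 (Ccn5) at an unadjusted p under 0.05 and 0 called by DESeq2 and by limma voom. Ccn5 had a log2 fold change of -0.67 (edgeR adjusted p = 0.18, or 0.00392 with the replicate block). Ccn2, a matrix-associated growth factor gene, had a log2 fold change of -2.37 (SE 1.21, edgeR adjusted p = 0.258, or 1.46e-06 with the replicate block), which was -3.63 without PUS10KO 1 and -1.26 without control 1 (edgeR adjusted p = 0.122 and 0.557), and Ccn3 had 0.01 (edgeR adjusted p = 0.996). EdgeR also called 0 of 14 FoxO factors and targets, with 4 at an unadjusted p under 0.05, 3 called by DESeq2 and 0 by limma voom. Active AKT holds down the FoxO proteins, whose state these counts of RNA do not show. The median log2 fold change of the 14 was 0.14, and with the replicate block 4 rose (Foxo1, Foxo3, Sesn3 and Klf15) and 2 fell (Txnip and Gadd45a). The most abundant were Txnip and Cdkn1b. Txnip had a log2 fold change of -0.87 (edgeR adjusted p = 0.131) and Cdkn1b had -0.12 (edgeR adjusted p = 0.895). With the replicate block 10 of the 84 genes rose and 19 fell, where 19.1% and 19.9% of all genes did so.

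**Figure D5:**
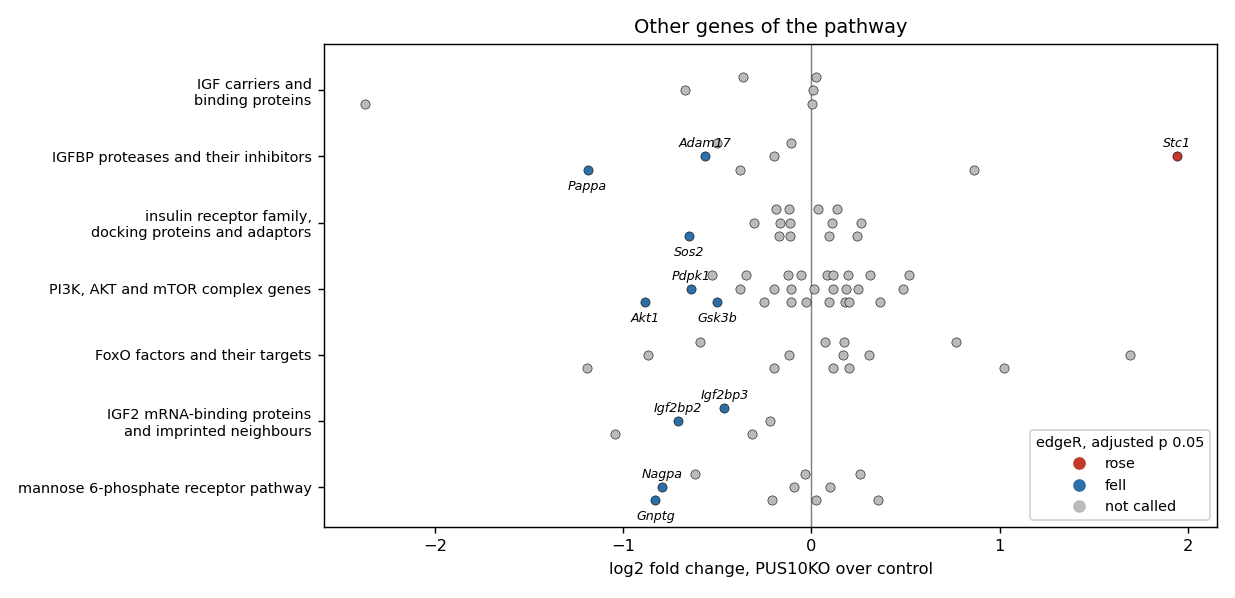
Log2 fold change of PUS10KO over control (horizontal axis) of each tested gene of 7 pathway lists (rows; vertical offsets within a row only part the points), coloured by the edgeR call. Stc1 is the 1 gene that rose, and the 10 that fell are named.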

How the data were processed

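For 8 libraries the authors deposited raw counts per gene, in whole numbers and without normalization, per the file headers and values. Per the labels' protocols these were stranded total RNA libraries sequenced in paired-end mode. Per the submitters' processing notes STAR 2.7.8a, DESeq2 and mm10 are named, with no role given. No source used here gives the counting tool, strand setting, annotation or gene filter, so overlapping genes cannot be told apart by these counts. The lowest row total was 27 counts. A second, normalized table of the same libraries was not used. Positions and exon lengths came from GENCODE M21 (GRCm38), matched by symbol for 12046 symbols and by RefSeq synonym for 150, with 13 unmatched; promoters came from RefSeq (GRCm38.p6), for all 9 genes.

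Counts were filtered with filterByExpr, scaled by TMM and tested with edgeR 4.0.16 (quasi-likelihood, robust; R 4.3.3), genotype the only term, all 8 libraries, Benjamini-Hochberg adjustment over 11909 genes and a threshold of 0.05. Each SE of an edgeR log2 fold change was worked back from the test, as its absolute value divided by the square root of F. Alternatives were a replicate block, DESeq2 1.42.0 (test and size factors), limma 3.58.1 voom, no filter, leaving out each library, libraries 1 and 2 or 3 and 4 alone (added after seeing the data), another pseudocount and another gene length. The edgeR test was also run on simulated counts without any effect of library number. That simulation cannot show how the test behaves where such an effect is present. The labels number the libraries of each genotype and do not say what equal numbers share. Deviations from genotype means correlated within every number (r = 0.633 to 0.722 over genes). Between different numbers r was up to 0.582 (PUS10KO 3 with control 4). The replicate block was fitted as an alternative for this pairing. The main calls come from the fit with genotype alone, which takes no account of it. The lowest chi-square per degree of freedom between libraries of a genotype was 17.9 (PUS10KO 3 with 4), beyond counting noise alone, and each counted as 1 sample. This value does not show that the libraries are independent samples. It was 24.2 for control 3 with 4, and 65.6 to 221 for all other pairs within a genotype. Genes, lists, markers and motifs were chosen with earlier results of these data known. Named genes outside the 9 were, per list, the called members (up to 6) or the 2 most abundant, and the 3 most like Igf1. Polr2b, Insr, Irs1, Irs2, Ccn5, Thy1, Pdgfra, Cd14, Col2a1, the smooth muscle markers and the FoxO genes called with the block were named after their values were seen.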

Additional observations from a re-analysis of the deposited data

How the results depend on the processing

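With the replicate block 2273 genes rose and 2368 fell. Among the 9 genes 6 then rose, since Igfbp3 (log2 fold change 1.39, edgeR adjusted p = 0.00135), Igfbp4 (0.42, adjusted p = 0.0146) and Igfbp5 (1.94, adjusted p = 0.000952) passed, and 10 pathway genes rose and 19 fell. The block changed no other call among the 9. DESeq2 called 1083 genes that rose, 5 of the 9 genes as rising (Igfbp3 at 1.47, adjusted p = 0.00998, and Igfbp5 at 2.17, adjusted p = 0.00899, in addition) and 5 pathway genes as rising. In libraries 1 and 2 alone 347 genes rose and 333 fell, 0 and 3 of them pathway genes, and Igfbp2 stood at 2.96 (adjusted p = 0.135). In libraries 3 and 4 alone 1333 rose and 1506 fell, 4 and 16 of them pathway genes, Igfbp5 had 2.45 (adjusted p = 0.000477) and Igf1r had 0.28 (adjusted p = 0.235). Limma voom, DESeq2 size factors and no filter changed no call among the 9 genes.

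Leaving out 1 library gave 492 to 638 genes that rose and 520 to 728 that fell, the lowest counts of falls without PUS10KO 2 (560) and PUS10KO 3 (520). Of the 9 genes 3 to 4 rose and 1 to 2 fell, and of the pathway genes 1 to 2 rose and 3 to 7 fell. Log2 fold changes lay between 1.36 and 1.97 for Igf1, -0.39 to 0.10 for Igf1r, -1.29 to -0.96 for Igf2r, 1.09 to 1.81 for Igfbp3, 0.20 to 0.56 for Igfbp4 and 1.53 to 2.54 for Igfbp5. Among other named genes Ccn3 changed sign: -0.22 with the block, -0.21 by limma voom, -0.81 in libraries 1 and 2 alone and -0.62 to 0.44 with 1 library left out. Cdkn1b ran from -0.37 to 0.11 with 1 library left out. The cause of these changes was not tested. With a pseudocount of 2 the mean difference within numbers was 2.23 for Igfbp2, against 3.05 with 0.5, and the other 8 genes moved by less than the spread between numbers. With the longest transcript as gene length the order of levels stayed the same, the summed level and both ratios moved by less than the SD between libraries, and Igf1r moved by more, to 8.97 in PUS10KO and 10.4 in control, as did Igf1 in control, to 1.46. Depth limits Igfbp2 and Igfbp5 most, with as few as 7 and 23 counts in a control library.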
